A study of Mus musculus with 109 samples.

Results

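Whole retinas of 6 Sarm1-/- mice were compared with those of 6 wild-type (WT) mice 2 days after an intravitreal injection of IL1A together with TNF. These 12 retinas, of 109 in the series, were chosen by their labels as those of batch 2, time 2 and treatment IL1A+TNF. Each came from a different mouse, 3 females and 3 males in each genotype. The WT mice were C57BL/6J and the deficient mice, labelled Sarm.KO, came from a line with a disrupted Sarm1 gene. How far the disruption reaches is not given in the sources used here. All mice were 2 to 6 months old. The injected volume was 2 μL, with IL1A at 0.1 μg/μL and TNF at 0.05 μg/μL. The other eye of all 6 Sarm1-/- mice and of 5 of the WT mice received PBS. These 6 and 5 retinas, also taken at 2 days, were the control measurement for each gene. Polyadenylated RNA was sequenced, and the read pairs counted on genes ranged from 48796849 to 57510927 in the Sarm1-/- IL1A+TNF retinas and from 49558686 to 79064488 in the WT IL1A+TNF retinas.

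SARM1 is an enzyme that cleaves NAD through its TIR domain and drives the breakdown of injured axons. Retinal ganglion cells (RGCs) are the neurons whose axons form the optic nerve. IL1A and TNF are cytokines that activate NF-kB signalling in glia, blood vessels and neurons, and both are released by microglia, the resident macrophages of the retina. Microglia carry the complement C1q genes, receptors for DNA and RNA in endosomes, and under activation the genes of MHC class II. The comparison asks which of the transcripts present at 2 days after the injection depend on Sarm1.

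Sarm1 counts were low in every retina labelled as deficient. Under IL1A+TNF the level was 27.2 CPM (read counts relative to library size, scaled by TMM) in the lowest Sarm1-/- retina, 38.6 CPM at the median and 48 CPM in the highest. In WT it was 85 CPM at the lowest, 100 CPM at the median and 112 CPM at the highest. The groups did not overlap, and reads were still counted on the disrupted gene. The rod markers summed to between 23800 and 48800 CPM in all 12 retinas.

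Several retinas stood apart from their group before any test was made. Sarm1-/- replicates 4 and 5, which were 2 of the 3 females of their group, lay at 117 and 122 on the first principal component, which held 46.9% of the variance, while the other 10 IL1A+TNF retinas lay between -16.4 and 56.8. Mitochondrial transcripts took 2.11% and 2.1% of the counts in these 2 retinas and between 2.65% and 3.81% in the other 10. The PBS eyes of Sarm1-/- mice 1 and 2 stood apart from the other PBS eyes. All retinas were scored on 882 genes that were higher after IL1A+TNF in WT retinas of batch 1, as the mean log2 CPM of these genes minus its mean in the WT PBS retinas of batch 2. The PBS eyes of mice 1 and 2 scored 0.934 and 1.07, and the other 9 PBS eyes scored between -0.422 and 0.338. In mouse 1 the IL1A+TNF eye scored 0.9, no higher than its PBS eye. The comparison was therefore repeated without mice 4 and 5 and without mice 1 and 2, omissions chosen after the data had been seen.

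**Figure D1:**
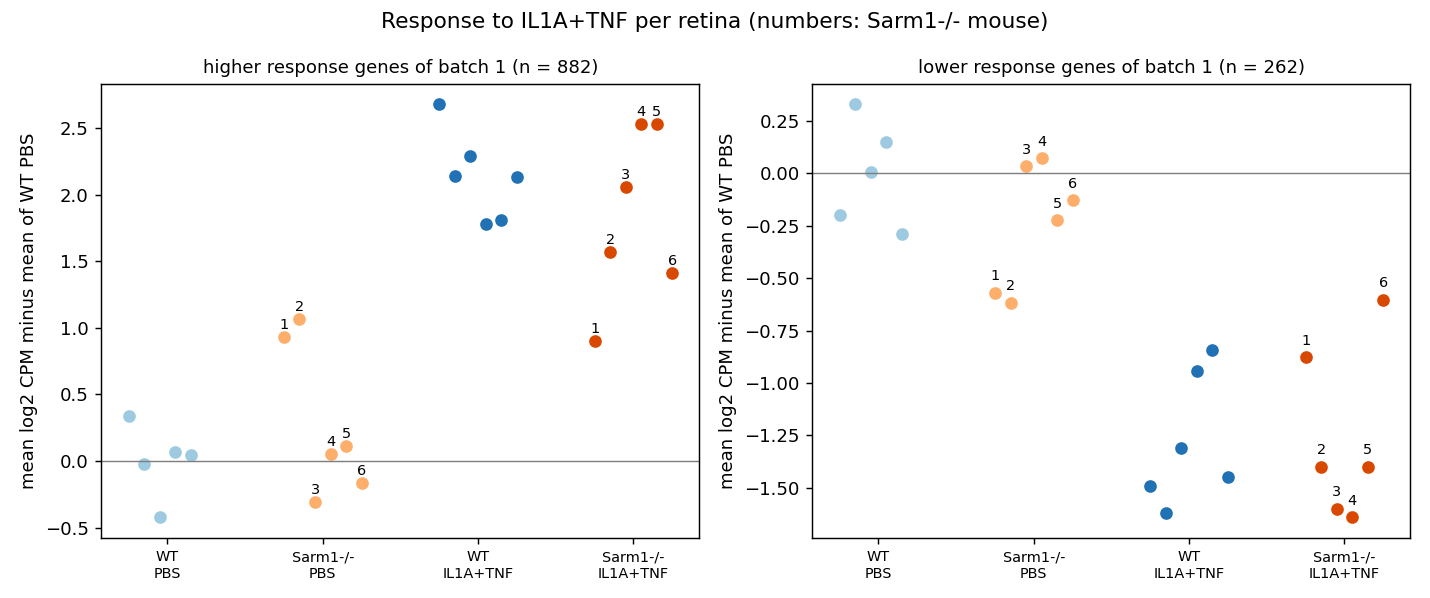
Score of the genes that were higher (left) and lower (right) after IL1A+TNF in WT retinas of batch 1, for each batch 2 retina, as mean log2 CPM relative to the average WT PBS retina. Each point is a retina and the numbers give the Sarm1-/- mouse; mouse 1 lies near 0.9 in both eyes, and mice 4 and 5 lie at 2.53.

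Under IL1A+TNF the scores of these 882 genes ranged from 0.9 to 2.53 in Sarm1-/- retinas (median 1.81) and from 1.78 to 2.68 in WT retinas (median 2.13). The ranges overlapped, with 3 Sarm1-/- retinas (replicates 1, 2 and 6, all male) below the lowest WT retina. The 262 genes that were lower in batch 1 scored between -1.64 and -0.604 in Sarm1-/- retinas and between -1.62 and -0.841 in WT retinas. These ranges overlapped as well. The median log2 fold change, always Sarm1-/- against WT, was -0.291 over the 882 genes, and -0.623 without mice 4 and 5 and -0.0888 without mice 1 and 2. In PBS it was 0.197.

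Of 19668 genes tested, 129 (0.656%) differed between Sarm1-/- and WT retinas under IL1A+TNF at an adjusted p (FDR) under 0.05, and these are called differentially expressed. In the Sarm1-/- retinas 96 genes (0.488%) were lower and 33 (0.168%) were higher. The test was limma on voom weights over the 23 retinas of batch 2. The median log2 fold change was -0.694 over the lower genes and 0.226 over the higher genes, beside -0.00612 over all genes tested. Of the 96 lower genes, 66 had all 6 Sarm1-/- retinas below the lowest WT retina, and of the 33 higher genes 16 had all 6 above the highest. Over all genes tested these shares were 0.625% and 0.3%. Among the 882 response genes of batch 1, 46 were lower and 0 were higher, which is 5.22% of the response genes and 47.9% of the 96 lower genes. Among the 262 response genes that were lower in batch 1, 0 were called in either direction.

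**Figure D2:**
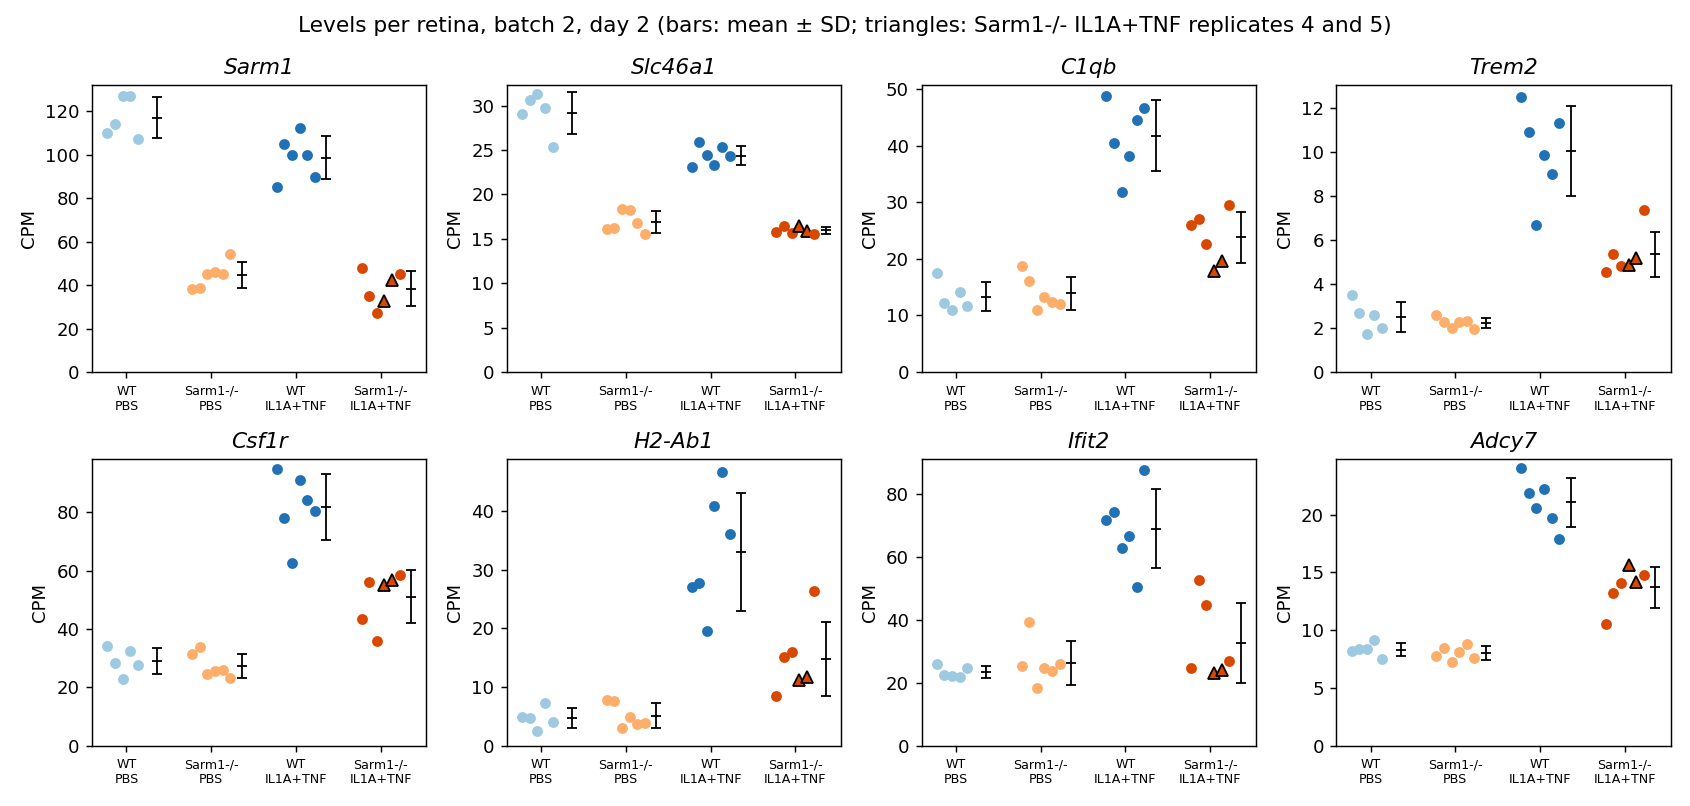
Level in CPM of 8 genes in each batch 2 retina, by group, with mean ± SD at the right of each group; triangles mark Sarm1-/- IL1A+TNF replicates 4 and 5. Sarm1 and Slc46a1 are lower in Sarm1-/- retinas under PBS as well as under IL1A+TNF, and in the other 6 genes most Sarm1-/- IL1A+TNF retinas lie below the WT ones.

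The number of called genes depended strongly on single retinas and on the fit. Without Sarm1-/- mice 4 and 5 it was 5 of 19700 genes (0.0254%, Sarm1, Slc46a1, Adcy7, Prcp and Man2b1, all lower). All 96 lower genes kept their sign there, with a median log2 fold change of -0.654, and all 33 higher genes kept theirs. Over all 19668 genes tested, 12950 kept their sign. The called genes were picked in a fit that held the remaining retinas, so kept signs were close to fixed in advance. Every other gene described as higher or lower under IL1A+TNF missed the threshold without mice 4 and 5. Without mice 1 and 2 the count was 191. Among the genes described by name, Ciita, H2-Ab1, Cd74, Sox11, Abhd15, Clec10a, Vezf1, Arntl, Gt(ROSA)26Sor and Smarca5-ps then missed the threshold, with limma FDRs from 0.0524 (Clec10a) to 0.0873 (Gt(ROSA)26Sor). Without single mice the count was 19, 47, 78 and 38 (WT 1, 4, 5 and 6) and 27, 223, 30 and 26 (Sarm1-/- 1, 3, 4 and 5), and between 106 and 142 without any other. The edgeR quasi-likelihood test called 60 genes and DESeq2 called 458. With the 12 IL1A+TNF retinas alone the count was 4 (Gpr65, Prcp, Sarm1 and Slc46a1). A weight per retina gave 3 (Adcy7, Sarm1 and Slc46a1). Neither fit called a member of the microglial, complement, MHC or interferon lists described below.

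Of 8 microglial markers 1 was lower and 7 were not called, beside 0.488% of all genes called lower. The lower gene was Csf1r, the receptor for the growth factor that keeps microglia alive. Its level ranged from 36 to 58.6 CPM in Sarm1-/- IL1A+TNF retinas (median 55.7) and from 62.6 to 94.8 CPM in WT (median 82.4). All Sarm1-/- retinas were below all WT retinas, and the log2 fold change was -0.69 ± 0.13 (SE, limma FDR 0.0164). In PBS the mean level was 27.5 CPM in Sarm1-/- and 29.2 CPM in WT retinas, with a log2 fold change of -0.09. Under IL1A+TNF without mice 4 and 5 it was -0.77 (limma FDR 0.0827), and without mice 1 and 2 it was -0.71 (limma FDR 0.0348). All 8 markers had a negative fold change, with a median of -0.48, which was -0.32 without mice 4 and 5 and -0.71 without mice 1 and 2. Markers of vessel cells had negative values too. The endothelial median was -0.46 (7 of 8 negative, 5 of them at an unadjusted limma p under 0.05, 0 called) and the pericyte median was -0.80 (4 of 4 negative, 0 called). Without mice 4 and 5 these medians were -0.21 and -0.13. Summed endothelial markers ranged from 288 to 588 CPM in Sarm1-/- and from 524 to 670 CPM in WT retinas, lowest in replicates 4 and 5, and their part in the microglial values was not tested. Cx3cr1, the fractalkine receptor, had -0.89 ± 0.25 (limma FDR 0.101) and Aif1, which encodes IBA1, had -0.79 ± 0.21 (limma FDR 0.0861). For whole retinas, fewer cells of a type and less RNA per cell cannot be told apart. The summed microglial markers lay between 95.8 and 154 CPM in Sarm1-/- and between 148 and 200 CPM in WT retinas under IL1A+TNF, and between 81.1 and 115 CPM in all PBS retinas. Such sums give most weight to abundant genes. The mean log2 CPM of the 8 markers, minus its mean in WT PBS retinas, weighs them equally. It was -0.705, -0.617 and -0.65 in Sarm1-/- replicates 3, 4 and 5, which are the females of that group. In the males, replicates 1, 2 and 6, it was 0.327, 0.0983 and 0.33. These male values lay within the WT range of -0.0529 to 0.63 (median 0.327). WT females scored 0.331, 0.299 and 0.63, and WT males scored -0.0529, 0.407 and 0.323. The omission of mice 4 and 5 leaves the low replicate 3 in the fit. The part of sex in this score was not tested.

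Trem2, a lipid receptor that microglia need to enter the disease-associated state (DAM), was lower in Sarm1-/- retinas. Its level was 4.56 CPM at the lowest, 5.02 CPM at the median and 7.36 CPM at the highest in Sarm1-/- retinas, and 6.7, 10.4 and 12.5 CPM in WT retinas. Replicate 6 of the Sarm1-/- group overlapped with the lowest WT retina, and the other 5 were below it. The log2 fold change was -0.90 ± 0.15 (limma FDR 0.00854), and -0.83 without mice 4 and 5 (limma FDR 0.0827). It was the called gene among 20 DAM genes, beside 0.488% of all genes called lower. The DAM median was -0.28, and 18 of the 20 had a negative fold change. The median was -0.52 without mice 4 and 5 and -0.17 without mice 1 and 2. Apoe had -0.82 ± 0.21 and Cd68 had -0.64 ± 0.17, with limma FDRs of 0.0789 and 0.0864. Lgals3, at 0.42 ± 0.45, had a positive value. Among 12 homeostatic microglial genes Csf1r alone was called, and the median was -0.23, with -0.35 and -0.46 under the same omissions.

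All 3 genes of complement C1q were lower in Sarm1-/- retinas. C1qa, C1qb and C1qc encode its chains, and the protein tags synapses and debris for removal. C1qb levels ranged from 17.8 to 29.5 CPM in Sarm1-/- retinas (median 24.4) and from 31.8 to 48.8 CPM in WT (median 42.5), without overlap. Its log2 fold change was -0.82 ± 0.14 (limma FDR 0.00854), and those of C1qa and C1qc were -0.78 ± 0.15 and -0.80 ± 0.15 (limma FDR 0.0209 for each). For C1qa 5 and for C1qc 4 Sarm1-/- retinas lay below the lowest WT retina, and the rest overlapped with WT. In PBS the fold changes of C1qa, C1qb and C1qc were 0.04, 0.08 and 0.03. The lowest levels of all 3 genes were in replicates 4 and 5. Without mice 4 and 5 the fold changes were -0.65 for C1qb, -0.53 for C1qa and -0.57 for C1qc, with limma FDRs of 0.0827, 0.11 and 0.11. The other 14 of 17 complement genes were not called, among them C3 at -0.33 ± 0.43, and the list median was -0.42. Over all genes tested 0.488% were called lower and the median was -0.00612.

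Genes of MHC class II presentation were lower in Sarm1-/- retinas, with 4 of 18 MHC genes called, beside 0.488% of all genes called lower. All 18 were negative, with a median of -0.37 beside -0.00612 over all genes tested. Ciita, the transactivator of class II genes, ranged from 2.21 to 5.15 CPM in Sarm1-/- retinas and from 4.85 to 9.39 CPM in WT retinas. H2-Ab1, the class II beta chain, was 8.4 CPM at the lowest, 13.4 CPM at the median and 26.4 CPM at the highest in Sarm1-/- retinas, and 19.5, 31.9 and 46.7 CPM in WT retinas. Replicate 6 lay among the WT values and the other 5 Sarm1-/- retinas lay below them. The log2 fold changes were -0.95 ± 0.19 for Ciita (limma FDR 0.0262), -1.21 ± 0.26 for H2-Ab1 (limma FDR 0.032) and -1.25 ± 0.29 for Cd74, the invariant chain (limma FDR 0.0471). H2-DMa, which loads peptide onto class II, had -0.73 ± 0.17 (limma FDR 0.0473), with 3 Sarm1-/- retinas below the lowest WT retina and the rest overlapping. Class I genes were not called, with -0.37 ± 0.15 for H2-K1 and -0.40 ± 0.13 for B2m. Without mice 4 and 5 the MHC median was -0.54 and 0 of the 18 were called in limma. Without mice 1 and 2 the median was -0.23, and H2-DMa was still called (limma FDR 0.0491).

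Among 24 interferon response genes, Ifit2 and Ifi44 were lower and 0 were higher, beside 0.488% and 0.168% of all genes tested. Ifit2, which binds viral RNA, was between 23.3 and 52.7 CPM in Sarm1-/- retinas (median 25.9) and between 50.6 and 87.9 CPM in WT retinas (median 69.4). Replicate 2, at 52.7 CPM, overlapped with the WT range, and replicates 1, 4, 5 and 6 lay between 23.3 and 27 CPM, where the mean of WT PBS retinas was 23.5 CPM. The log2 fold change was -1.13 ± 0.18 (limma FDR 0.00854). Ifi44 had -1.75 ± 0.38 (limma FDR 0.0355), with levels from 0.812 to 4.8 CPM in Sarm1-/- and from 4.35 to 7.44 CPM in WT retinas. Without mice 4 and 5 the fold changes were -0.96 for Ifit2 (limma FDR 0.0827) and -1.41 for Ifi44 (limma FDR 0.158). The other 22 were not called. Irf7 had 0.19 ± 0.60 and Isg15 had -0.30 ± 0.34, and the list median was -0.21. It was -0.65 without mice 4 and 5 and turned to 0.11 without mice 1 and 2.

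Besides Sarm1 and Slc46a1, the smallest FDRs were those of Adcy7 and Prcp. Adcy7, an adenylate cyclase abundant in myeloid cells, ranged from 10.5 to 15.6 CPM in Sarm1-/- retinas and from 17.9 to 24 CPM in WT retinas. Its fold change was -0.62 ± 0.08 (limma FDR 0.000607), and it was still called without mice 4 and 5 (-0.66, limma FDR 0.0117). Prcp, a lysosomal carboxypeptidase, had -0.53 ± 0.07 (limma FDR 0.000607), with 12.2 to 14.4 CPM against 17.5 to 20.9 CPM. Sema4d, a semaphorin that acts on axons and immune cells, had -0.41 ± 0.07, and Pald1 had -0.49 ± 0.08. Otulinl had -0.69 ± 0.11 and Pld4, an endolysosomal nuclease, had -0.95 ± 0.16, and the limma FDR of these 4 genes was 0.00854. For each of these 6 genes every Sarm1-/- retina was below every WT retina. In PBS their fold changes lay between -0.06 and 0.11. Tlr7, Tlr9, Ctss and Man2b1 are named here after their values were seen. Tlr7 and Tlr9, the endosomal receptors for RNA and DNA, had -0.92 and -1.18, with limma FDRs of 0.00854 and 0.0209. Man2b1, a lysosomal mannosidase, had -0.38 ± 0.07 (limma FDR 0.0168). Ctss, the lysosomal protease cathepsin S, had -0.73 (limma FDR 0.0241) and a mean of 68.5 CPM in Sarm1-/- against 114 CPM in WT retinas. Clec12a, a myeloid lectin receptor, had -1.26 ± 0.26 (limma FDR 0.0262).

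Promoter windows of the lower genes were searched for GAGGAAG, the core of the site that the myeloid factor PU.1 binds, on both strands. A window ran from 250 bases before to 50 bases after a RefSeq start site (GRCm38.p6), 300 bases in all. Of the 96 lower genes 71 matched an entry, with 94 windows, and 22 of these windows (23.4%) held the letters, beside 13.6% of all 32851 windows. Of the 33 higher genes 25 matched, and 1 of 32 windows (3.12%) held them. For the interferon-stimulated response element (ISRE), a single pattern of letters for its core was searched on both strands. An exact match was found in 4 of the 94 windows (4.26%) beside 3.44% of all windows. No window of Ifit2 or Ifi44 held an exact match. Near matches were not searched, so the absence of a match does not show that these windows lack such an element. A match is a description of the letters only. The windows of 4 lower genes that hold GAGGAAG on either strand are shown 5′ to 3′ on the strand of the gene, with the match in capitals (CTTCCTC where it lies on the other strand).
Trem2 (chr17:48346151-48346450, plus strand): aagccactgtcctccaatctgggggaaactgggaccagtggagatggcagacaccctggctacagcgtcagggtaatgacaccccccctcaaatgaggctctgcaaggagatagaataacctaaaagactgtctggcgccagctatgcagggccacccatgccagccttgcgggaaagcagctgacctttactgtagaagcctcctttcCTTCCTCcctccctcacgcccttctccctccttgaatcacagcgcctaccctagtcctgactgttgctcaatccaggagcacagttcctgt
C1qc (chr4:136892865-136893164, minus strand): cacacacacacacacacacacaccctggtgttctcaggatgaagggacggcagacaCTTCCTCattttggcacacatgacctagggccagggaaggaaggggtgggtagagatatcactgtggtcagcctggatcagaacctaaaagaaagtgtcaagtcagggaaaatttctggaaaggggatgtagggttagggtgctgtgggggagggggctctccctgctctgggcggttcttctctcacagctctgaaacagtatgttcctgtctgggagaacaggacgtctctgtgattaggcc
Ctss (chr3:95526536-95526835, plus strand): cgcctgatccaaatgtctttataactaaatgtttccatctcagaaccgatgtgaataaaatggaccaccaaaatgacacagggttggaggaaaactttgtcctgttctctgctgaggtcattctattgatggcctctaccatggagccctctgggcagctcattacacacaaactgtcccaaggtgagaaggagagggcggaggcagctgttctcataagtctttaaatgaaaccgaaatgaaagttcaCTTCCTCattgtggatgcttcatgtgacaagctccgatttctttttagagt
Pld4 (chr12:112760405-112760704, plus strand): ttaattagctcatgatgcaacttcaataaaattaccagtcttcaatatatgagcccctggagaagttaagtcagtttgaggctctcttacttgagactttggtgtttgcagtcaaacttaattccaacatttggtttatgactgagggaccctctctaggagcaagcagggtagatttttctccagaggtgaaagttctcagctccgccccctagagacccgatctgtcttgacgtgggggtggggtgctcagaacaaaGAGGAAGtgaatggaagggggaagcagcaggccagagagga
Counted from the start site, the match begins at -41 in Trem2, -194 in C1qc, -1 in Ctss and 9 in Pld4. The window of C1qb held none. These 4 genes were chosen for display after their values were seen.

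The 33 higher genes had small fold changes, between 0.163 and 0.887. Rgs16, a regulator of G protein signalling, was 29.9 CPM at the lowest, 35.2 CPM at the median and 53 CPM at the highest in Sarm1-/- retinas, against 22.4, 26.7 and 30.9 CPM in WT retinas, with replicates 4 and 5 the highest. Its fold change was 0.52 ± 0.11 (limma FDR 0.0263) and 0.33 without mice 4 and 5 (limma FDR 0.11). Kdm3a, a histone demethylase, had 0.36 ± 0.08 and Gt(ROSA)26Sor, a noncoding transcript, had 0.45 ± 0.10, with limma FDRs of 0.0355 and 0.0455. Smarca5-ps, a pseudogene whose reads may be shared with Smarca5, had 0.56 ± 0.12 (limma FDR 0.0273). Arntl, which encodes the clock protein BMAL1, had 0.21 ± 0.05 (limma FDR 0.046). It was the called member of 19 clock genes, beside 0.168% of all genes called higher.

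Of 18 genes of Sarm1 and NAD metabolism, Sarm1 was lower and Sirt1, an NAD-dependent deacetylase, was higher. Of all genes tested, 0.488% were called lower and 0.168% higher. Sirt1 ranged from 67.7 to 79.9 CPM in Sarm1-/- and from 58.7 to 70.5 CPM in WT retinas, with overlap, and its fold change was 0.20 ± 0.04 (limma FDR 0.0352). Nmnat2, which makes NAD in axons and is lost from injured axons, had -0.54 ± 0.31 (limma FDR 0.401), and Nampt had 0.17 ± 0.17 (limma FDR 0.633). The median of the list was 0.01. Sox11, a transcription factor induced in injured RGCs, was the called member of 17 axon injury genes, at -0.67 ± 0.14 (limma FDR 0.0336), with 1.22 to 1.74 CPM in Sarm1-/- and 1.67 to 3.13 CPM in WT retinas. Atf3 of the same list had 0.38 ± 0.39. The median of the axon injury list was 0.16. It turned to -0.24 without mice 4 and 5 and was 0.43 without mice 1 and 2.

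Neuronal genes of the inner retina were lowest in Sarm1-/- replicates 4 and 5. Thy1, a surface protein of RGCs, was 15.6 and 13.5 CPM in these 2 retinas. It was 139, 120, 56.7 and 106 CPM in Sarm1-/- replicates 1, 2, 3 and 6 and ranged from 61.3 to 121 CPM in WT retinas. Rbpms, the RNA-binding protein used to count RGCs, was 12.3 and 10.3 CPM in replicates 4 and 5, between 15 and 31.5 CPM in the other 4, and between 20.9 and 34.1 CPM in WT retinas. Grm6, the glutamate receptor of ON bipolar cells, was 9.47 and 9.34 CPM in replicates 4 and 5 and at least 56.5 CPM in each of the other 10. Gad1, the GABA-synthesizing enzyme of amacrine cells, was 26.3 and 28.3 CPM in replicates 4 and 5 and at least 107 CPM in each of the others.

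A list score is the mean log2 CPM of its members minus its mean in WT PBS retinas. RGC markers scored -2.49 and -2.64 in replicates 4 and 5, from -1.3 to 0.0032 in the other Sarm1-/- retinas and from -0.932 to -0.188 in WT retinas. Bipolar markers scored -3.04 and -3.08, against a lowest value of -1.15 (WT replicate 3) elsewhere, and amacrine markers scored -2.95 and -2.77, against a lowest value of -1 (WT replicate 3). Horizontal cell markers scored -2.46 and -2.95, pericyte markers -2.09 and -2.16, and Müller glia markers -1.39 and -1.08. Rod markers scored -0.611 and -0.772 and cone markers -1.64 and -1.64, which were within the range of the other retinas (down to -0.819 for rods and -1.67 for cones, both in Sarm1-/- replicate 3). Glutamate receptors scored -2.47 and -2.55, GABA and glycine receptors -2.78 and -2.84, and sodium, potassium and HCN channels -2.42 and -2.56, and none of the other 10 retinas lay below -1.04 in these lists. In the PBS eyes of mice 4 and 5 the RGC scores were 0.0296 and -0.0183.

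**Figure D3:**
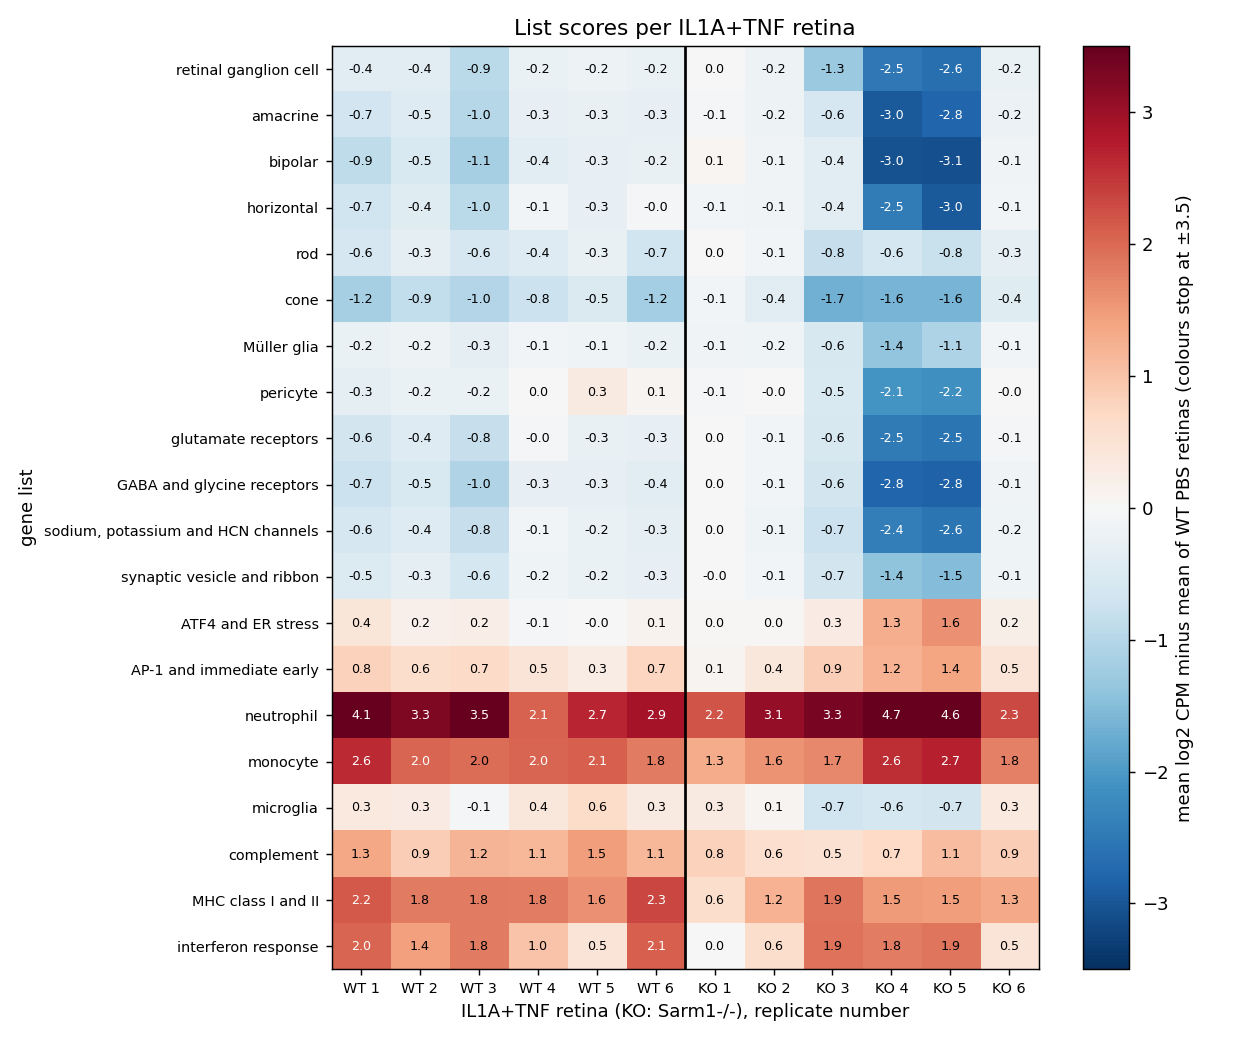
Score of 20 gene lists in each of the 12 IL1A+TNF retinas, as mean log2 CPM minus the mean of WT PBS retinas (blue lower, red higher). Replicates 4 and 5 of the Sarm1-/- group (KO 4, KO 5) hold the lowest scores of the inner retinal and synaptic lists, while rods and cones there are like those of KO 3.

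In the fit of batch 2, 0 of 16 RGC markers (median -0.74), 0 of 25 glutamate receptors (median -0.51), 0 of 22 GABA and glycine receptors (median -0.47) and 0 of 31 sodium, potassium and HCN channels (median -0.57) were called. Without mice 4 and 5 the medians were -0.03, 0.2, 0.28 and 0.17, and without mice 1 and 2 they were -1.34, -1.02, -1.05 and -1.12. When all 81 retinas of day 2 were fitted together with a term for batch, 2988 of 20154 genes (14.8%) were called under IL1A+TNF, 814 (4.04%) higher and 2174 (10.8%) lower. That fit called 15 of 16 RGC markers, 18 of 25 glutamate receptors, 15 of 22 GABA and glycine receptors and 23 of 31 sodium, potassium and HCN channels, all lower. Thy1 had -0.92 (limma FDR 0.00307) and Grm6 had -0.86 (limma FDR 0.0167) there. With mice 4 and 5 left out of the same fit, 154 of 20459 genes (0.753%) were called, 17 (0.0831%) higher and 137 (0.67%) lower, and 0 members of these 4 lists. Thy1 then had -0.04 and Grm6 had 0.30.

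**Figure D4:**
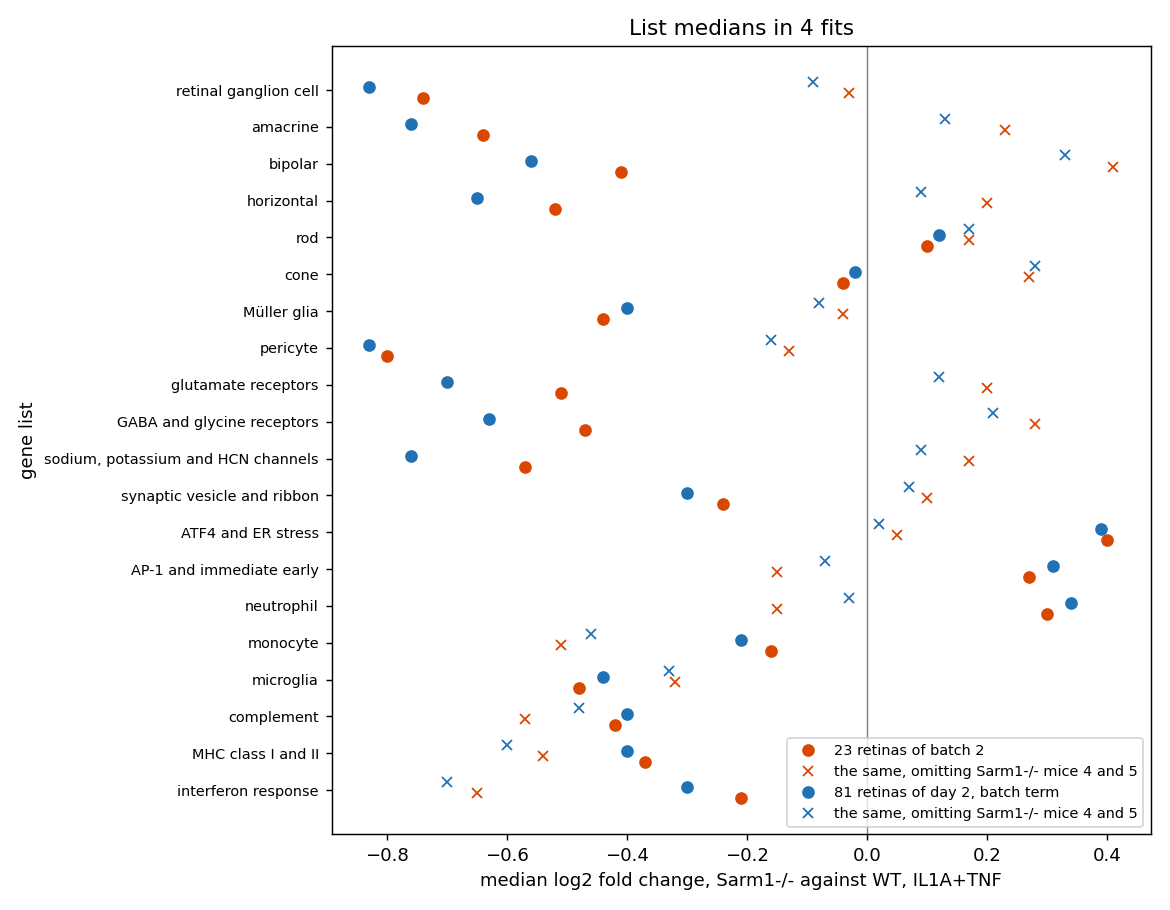
Median log2 fold change of 20 gene lists in Sarm1-/- against WT IL1A+TNF retinas, in 4 fits: batch 2 (orange) or all day 2 retinas with a batch term (blue), with all mice (circles) or omitting Sarm1-/- mice 4 and 5 (crosses). The medians of the RGC, glutamate receptor and channel lists move to near 0 or above without these mice, while those of microglia, complement, MHC and interferon genes stay below 0.

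In the 81 retinas without mice 4 and 5 Tlr7 had -0.87 (limma FDR 0.0357) and Ctss had -0.69, whose limma FDR of 0.173 missed the threshold. The microglial marker median there was -0.33, beside -0.44 with these mice, and the RGC median was -0.09, beside -0.83.

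Genes of the stress response were highest in replicates 4 and 5. ATF4 and ER stress genes scored 1.27 and 1.6 there, from 0.0375 to 0.29 in the other Sarm1-/- retinas and from -0.0545 to 0.414 in WT retinas. All 20 genes of this list had a positive fold change and 0 were called, with a median of 0.4, and of 0.05 without mice 4 and 5. Trib3, a target of ATF4, was 16.6 and 17.7 CPM in replicates 4 and 5 and between 4.92 and 10.8 CPM in the other 10 retinas. Hmox1, heme oxygenase 1, was 451 and 575 CPM there and between 29.3 and 267 CPM elsewhere, with 29.3 CPM in Sarm1-/- replicate 1. Neutrophil markers summed to 683 and 633 CPM in replicates 4 and 5, from 106 to 334 CPM in the other Sarm1-/- retinas and from 153 to 684 CPM in WT retinas. None of 30 genes of IL1 and TNF signalling was called, with a median of 0.04, and none of 18 genes of necroptosis and caspase-8, with a median of -0.05. Leaving out mice 4 and 5 gave medians of -0.27 and -0.22, and without mice 1 and 2 they were 0.10 and 0.08, so both turned sign between the omissions. Erythrocyte genes summed to 96.8 and 49 CPM in replicates 4 and 5, to 80.3 CPM in replicate 3, and from 16.1 to 38.3 CPM in the others. The part of depth, RNA quality or blood in the values of replicates 4 and 5 was not tested.

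Of the 53 lists described, 44 held no called gene. None of 18 genes of the DLK, JNK and JUN cascade was called, with a median of -0.01, which was 0.08 without mice 4 and 5 and -0.06 without mice 1 and 2. Jun itself, the transcription factor that this cascade activates, was 161 and 188 CPM in Sarm1-/- replicates 4 and 5 and between 53.5 and 140 CPM in the other 4, against 59.1 to 109 CPM in WT retinas. Its fold change was 0.31 ± 0.23 (limma FDR 0.505), so the genotypes could not be separated beyond the spread between retinas. Reactive astrocyte genes were not called either, with medians of 0.01 for 13 pan-reactive, -0.27 for 11 A1 and 0.07 for 12 A2 genes. Omitting mice 4 and 5 gave medians of -0.28, -0.49 and -0.34, and without mice 1 and 2 they were 0.22, -0.17 and 0.35, so the sign of the pan-reactive and A2 medians depended on these mice. Gfap, the filament protein of reactive astrocytes and Müller glia, ranged from 120 to 240 CPM in Sarm1-/- and from 163 to 363 CPM in WT retinas (-0.63 ± 0.31, limma FDR 0.346). Lcn2, a lipocalin of reactive astrocytes, ranged from 365 to 927 CPM and from 517 to 746 CPM, at 0.01 ± 0.59.

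The gene next to Sarm1 on chromosome 11 was lower under both treatments. Slc46a1, a folate transporter, lies at chr11:78465697-78472059 (GRCm38, plus strand), and its 3′ end lies close to the 3′ end of Sarm1 (chr11:78472330-78497754, minus strand). Slc46a1 was between 15.5 and 16.4 CPM in Sarm1-/- and between 23.1 and 25.9 CPM in WT retinas under IL1A+TNF. The log2 fold change was -0.61 ± 0.05 (limma FDR 2.17e-06), and -0.80 ± 0.05 in PBS (limma FDR 5.42e-08). For Sarm1 itself it was -1.38 ± 0.11 (limma FDR 1.89e-06) and -1.40 in PBS (limma FDR 1.23e-06). Counting by strand was not stated, so reads that run past either gene cannot be assigned with certainty.

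Within 10 Mb on either side of Sarm1, 8 of 429 genes (1.86%) were called besides Sarm1, against 0.851% of the 940 genes over 20 Mb away. Tlcd2, 3.02 Mb away, was higher at 0.89 ± 0.18 (limma FDR 0.0273) and at 0.94 in PBS (limma FDR 0.706), with levels of 2.17 to 3.29 CPM against 1.15 to 1.8 CPM. Vps53, of the GARP tethering complex, was lower at -0.22 ± 0.05 (limma FDR 0.0262) and at -0.26 in PBS (limma FDR 0.171). The other called genes of this window were Adap2 and its antisense transcript Adap2os, Abhd15, Clec10a (all lower) and Vezf1 (higher, 0.16 ± 0.03). Adap2 had -0.75 ± 0.12, with -0.11 in PBS, and reads of Adap2 and Adap2os cannot be told apart without strand. The cluster of CC chemokines that lies 3.55 to 5.18 Mb from Sarm1 held no called gene. Ccl2 had 0.79 ± 0.54 and ranged from 3.14 to 32.1 CPM in Sarm1-/- retinas, where replicates 4 and 5 were the highest. Ccl5 had 0.42 ± 0.52, Ccl3 -0.28 ± 0.44 and Ccl6 -0.04 ± 0.37, and Cxcl16, 8.03 Mb away on the other side, had -0.29 ± 0.11 (limma FDR 0.218). Without mice 4 and 5 Ccl2 had 0.01, Ccl5 -0.69, Ccl3 -0.79, Ccl6 -0.66 and Cxcl16 -0.09.

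**Figure D5:**
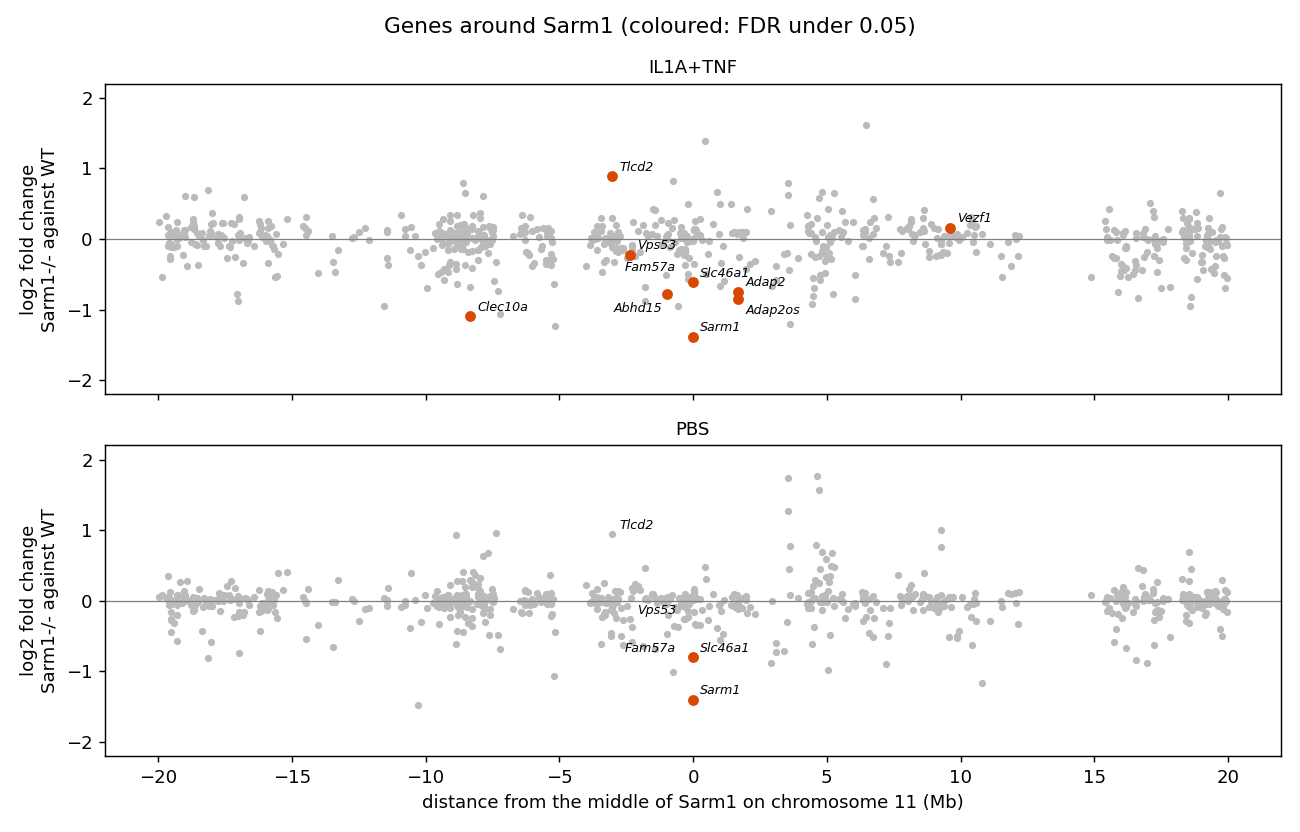
Log2 fold change of Sarm1-/- against WT retinas for the genes within 20 Mb of Sarm1, by distance from the middle of Sarm1, under IL1A+TNF (top) and PBS (bottom); coloured points have an FDR under 0.05. Sarm1 and Slc46a1 are lower in both panels, and Tlcd2 is near 0.9 in both.

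Mouse 6 differed from the other Sarm1-/- mice at a pair of genes on chromosome 17. Dynlt1b, a dynein light chain with near-identical copies, and the pseudogene Tmem181b-ps are neighbours at chr17:6430112-6436296 and chr17:6438524-6467022, so their counts are uncertain. Under IL1A+TNF, Dynlt1b was 3.51 CPM in Sarm1-/- replicate 6, between 1.57 and 2.22 CPM in the other 5, and between 3.06 and 3.94 CPM in WT. Tmem181b-ps was 4.97 CPM in replicate 6, between 2.15 and 2.75 CPM in the other 5, and between 4.03 and 5.46 CPM in WT. Mouse 6 lay within the WT range for both genes. Its PBS eye was at 4.32 CPM for Dynlt1b and 5.4 CPM for Tmem181b-ps, and the other 5 Sarm1-/- PBS eyes were at most at 1.79 and 3.08 CPM. Fold changes under IL1A+TNF were -0.72 ± 0.20 for Dynlt1b (limma FDR 0.105) and -0.77 ± 0.18 for Tmem181b-ps (limma FDR 0.0553). Fam57a, 2.29 Mb from Sarm1, had -0.10 ± 0.08, and Nrf1 had 0.17 ± 0.04 (limma FDR 0.0681). In the fit of 81 retinas Dynlt1b, Tmem181b-ps and Nrf1 passed the threshold, with limma FDRs of 0.00045, 3.39e-05 and 0.00205. There, without mice 4 and 5, Dynlt1b (limma FDR 0.041) and Tmem181b-ps (limma FDR 0.0162) still passed and Nrf1 (limma FDR 0.172) did not.

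In PBS retinas Sarm1 and Slc46a1 were the 2 genes called (0.0102% of 19668), and 582 had an unadjusted p under 0.05. The median PBS fold change of the 96 genes lower under IL1A+TNF was 0.0022, with 47 of the 96 negative. The direct test of whether the genotype difference depended on treatment gave 0 calls among 19668 genes (0%) in limma, although 1125 had an unadjusted p below 0.05, and the smallest FDR was 0.752. The edgeR test called 0 (1260 at an unadjusted p under 0.05) and DESeq2 called 13 (1441). For Adcy7 the difference of the fold changes was -0.56 ± 0.13, and for Ifit2 it was -1.28 ± 0.3, both with a limma FDR above the threshold. The fit of all 81 retinas called 1763 genes for this difference, and 0 once mice 4 and 5 were left out. The PBS eyes of mice 1 and 2 enter this test, and omitting both mice from batch 2 also gave 0.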

How the data were processed

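Polyadenylated RNA of whole mouse retinas was sequenced as read pairs. The authors aligned the pairs to mm10 with STAR 2.7.9a and summed them per gene with featureCounts of Subread 2.0.1. The deposited file holds these raw counts for 37315 genes, with no normalization. The annotation release and the strand setting are not given in the sources used here. No column of the table was left unassigned (0 unused columns), and no pair of replicates was a repeat of the same library.

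Gene symbols were paired with 35533 of the identifiers. Counts were scaled by TMM (edgeR 4.0.16), filtered with filterByExpr at a minimum count of 10, and fitted with voom weights in limma 3.58.1 (R 4.3.3). The model held group and sex, with the mouse as a block (duplicateCorrelation, 2 rounds), over the 23 retinas of batch 2. P-values were adjusted by Benjamini-Hochberg over all genes tested, with a threshold of 0.05. The fit of 81 retinas added the day 2 retinas of batch 1 and a batch term, as the study's model does, and was treated as an alternative. List and response scores used log2 CPM with a prior count of 2. Response genes were those of batch 1 WT retinas past the threshold whose log2 fold change was 1 or more, up or down. The main fit and its genotype contrast under IL1A+TNF were run on simulated counts with 200 genes changed in the Sarm1-/- IL1A+TNF retinas. The simulated counts held no other group difference, no link between the eyes of a mouse and no retinas set apart. The other steps were not tested in this way.

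The eyes of a mouse were paired by the mouse in the labels. Over 11 mice the correlation of the 2 eyes' deviations from their group means ranged from -0.277 to 0.26 (median 0.0849, 4 mice above 0.1), and the fitted block correlation was -0.0763. Since each retina compared between genotypes is from a separate mouse, the spread is between mice.

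Named genes were Sarm1, the 10 called genes with the smallest FDR, the 5 highest and 5 lowest fold changes among called genes with an average of at least 1 CPM, called genes within 10 Mb of Sarm1, up to 4 called members of each list, genes the study names for this genotype, and chemokine genes within 10 Mb of Sarm1. List members whose levels are described were also named. The gene lists, the comparison and these rules were chosen with earlier results of these data known. Alternatives were RLE size factors, library totals, other filters, no sex term, no block, a weight per retina, each sex alone, the 12 IL1A+TNF retinas alone, leaving out each mouse, edgeR's quasi-likelihood test and DESeq2 1.42.0.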

Additional observations from a re-analysis of the deposited data

Results flagged for a closer look

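In 176 groups of 5 or 6 retinas, 10 values lay far from the rest of their group by Dixon's criterion, where chance flags about 1 in 20 groups. The number flagged was near that share, but the groups were not independent and a count does not weigh how far a value lay. The gap to the next value took 0.916 to 0.998 of the group's range for the lens markers below. The limit was 0.625 for 6 retinas and 0.71 for 5. Summed lens markers were 7080 CPM in Sarm1-/- IL1A+TNF replicate 5 (next 644), 5630 CPM in WT IL1A+TNF replicate 3 (next 89), 6380 CPM in Sarm1-/- PBS replicate 1 (next 52.2) and 1610 CPM in WT PBS replicate 5 (next 61.9). These 4 retinas fell 1 in each group, and the part of lens transcripts in the results was not tested. Ifit2 was 39.5 CPM in Sarm1-/- PBS replicate 2, whose next highest retina was at 26.1 CPM, just past the limit of the criterion. Vps53 was 68.8 CPM in WT PBS replicate 5, below 73.9 CPM in the next.

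Mouse 6 of the Sarm1-/- group stood apart at both chromosome 17 genes in both eyes. Dynlt1b was 3.51 CPM in its IL1A+TNF eye (next 2.22) and 4.32 CPM in its PBS eye (next 1.79). Tmem181b-ps was 4.97 CPM (next 2.75) and 5.4 CPM (next 3.08). Without mouse 6 the PBS comparison called 5 genes, Sarm1, Slc46a1, Dynlt1b, Tmem181b-ps and ENSMUSG00000079733.

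The genotype difference under IL1A+TNF was tested for a difference between female and male mice over the 12 retinas, a test chosen after seeing the data. With limma, 1023 of 18701 genes passed, 301 of them with a higher value in females, and the smallest FDR was 0.0459. Sarm1-/- replicates 4 and 5 are 2 of the 3 females. Without them 0 of 19102 genes passed (2851 at an unadjusted p under 0.05, smallest FDR 0.217), with 1 Sarm1-/- female left.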

How the results depend on the processing

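The count of genes called under IL1A+TNF was 129. It was 4 with the 12 IL1A+TNF retinas alone (Gpr65, Prcp, Sarm1, Slc46a1), 2988 with 81 retinas and a batch term, 84 with no filter, 3 with a weight per retina (Adcy7, Sarm1, Slc46a1), 60 with edgeR and 458 with DESeq2. Females alone gave 2731 and males alone 0 (limma, 3988 at an unadjusted p under 0.05). Without Sarm1-/- mice 4 and 5, chosen after seeing the data, it was 5, and leaving out 1 mouse at a time gave 19 to 223. Without the replicate block it was 115, so the pairing by mouse moved this count by less than 1.5 times, and it changed neither the PBS count (2) nor the interaction count (0). The other settings gave 111 to 191.

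In PBS the count was 2, and 8 with 81 retinas, 7 with 81 retinas without mice 4 and 5, 6 with DESeq2 and 0 in females alone (limma, 206 at an unadjusted p under 0.05). Leaving out 1 mouse at a time gave 2 to 5. The interaction count was 0, and 1763 with 81 retinas, 13 with DESeq2 and 1 in females alone (Rgs4), with 0 to 0 when mice were left out one at a time. The cause of these differences was not tested. Over 24 of the named genes and 672 alternative values, 479 kept their direction and side of the threshold, 178 lost the call, 15 gained it and 0 changed sign. Uncalled chemokine genes near Sarm1 did change sign. Without mice 4 and 5 Ccl5 went from 0.42 to -0.69 and Ccl7 from 0.63 to -0.23. The rules for named genes mostly take genes called in these same retinas, so kept signs were likely in advance. Depth was 48796849 read pairs or more in the 12 retinas, and genes near 1 CPM or below have the least precise values.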
